A study of Mus musculus with 4 samples.

Results

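Genes of macrophage oxidant and itaconate production, 8 in number, are described here across 4 RNA sequencing libraries. They were taken by name: 5 components of the phagocyte NADPH oxidase (Cybb, Cyba, Ncf1, Ncf4 and Rac2), the inducible nitric oxide synthase Nos2, the itaconate-producing enzyme Acod1, and the mitochondrial superoxide dismutase Sod2. All 8 of these genes were found by their NCBI gene ID among the 16403 gene IDs listed in the tables, as 13058 (Cybb), 13057 (Cyba), 17969 (Ncf1), 17972 (Ncf4), 19354 (Rac2), 18126 (Nos2), 16365 (Acod1) and 20656 (Sod2). Total RNA came from peritoneal macrophages of C57BL/6 mice that had received 4% thioglycolate 4 to 5 days earlier. This treatment draws inflammatory macrophages into the peritoneum. The washed-out cells adhered for 4 h and were then starved in medium with 0.5% serum. One pair of libraries came from wild-type (WT) mice and the other from mice in which floxed Trim24 (TIF1a) was deleted by a Cre recombinase driven from the lysozyme M locus, which is active in myeloid cells. Within each genotype 1 library was left untreated and 1 received mouse IL-4 at 20 ng/mL for 6 h. The mice were young adults. The number of mice per library and their sex were not given in the sources used here. WT littermates were the controls, and whether they carried the floxed allele or the Cre was not given either.

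The phagocyte oxidase is a multi-subunit enzyme that passes electrons from NADPH to oxygen and so makes superoxide, which is used against ingested microbes. Cybb and Cyba form its membrane-bound core, while the products of Ncf1 and Ncf4 wait in the cytosol and move to the core together with a Rac GTPase when the cell is activated. Nos2 makes nitric oxide from arginine, Acod1 makes itaconate from the tricarboxylic acid cycle intermediate cis-aconitate, and both are induced by bacterial products and interferon-gamma in classically activated macrophages. The opposite, alternatively activated (M2) state is induced by IL-4 through the transcription factor Stat6, and arginase 1 is its best known marker in mice.

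With 1 library in each group there were no replicates, so no difference below was checked against variation between mice or cultures, and every pairwise test compares libraries rather than conditions. The libraries held 11026033 to 11250099 expected reads (reads assigned to genes by the authors' model), and a detection floor of 3 reads corresponded to 0.267 to 0.272 reads scaled by library total (CPM). Trim24 was listed at 2.55 FPKM (fragments scaled by transcript length and library total) in untreated WT cells and 1.48 with IL-4, against 0.06 and 0.14 FPKM in the libraries labelled knockout (KO). All 8 macrophage markers had reads in every library, and without Lyz2 their summed level was 3559 to 3957 FPKM, mostly Cd68 (3005 to 3465 FPKM). Within this list Csf1r was called higher with IL-4 in both genotypes (145 to 270 and 135 to 285 FPKM), Cd14 was called lower in both (log2 ratios of -1.07 and -0.88), and Fcgr1 was called lower in KO cells (8.90 to 4.99 FPKM). Lyz2, the gene of the lysozyme M locus itself, was listed at 11289 and 10811 FPKM in the WT libraries and at 5193 and 4761 FPKM in the KO libraries. Mertk was called higher in KO than in WT cells with IL-4 (35.3 against 23.3 FPKM, log2 ratio 0.60). It was not called between untreated genotypes (29.7 against 22.6 FPKM). With a trend over transcript length removed, its value with IL-4 became 0.54 and was not called. Neutrophils also carry much of the oxidase. Of 12 neutrophil markers S100a9, Ly6g, Retnlg, Camp and Ngp had no listed value in any library and were set to 0. Others had reads in all 4 libraries, with S100a8 at 5.15 to 8.76 FPKM, Cxcr2 at 2.43 to 3.10 FPKM and Mmp8 at 1.70 to 2.73 FPKM. Mpo, Elane and Ltf were at 0.36 FPKM or less. The summed level of the 12 was 51.2 to 55.4 FPKM in the untreated libraries and 85.5 to 89.1 FPKM with IL-4, of which the receptor gene Csf3r made up 40.8 to 41.3 and 76.0 to 76.3 FPKM. Without Csf3r the sum was 14.2 FPKM in untreated WT cells, 9.49 with IL-4, 10.4 in untreated KO cells and 12.8 with IL-4. The part of these marker shifts in the results below was not tested. In bulk RNA, fewer cells of a type and less RNA per cell cannot be told apart.

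Oxidase transcripts spanned a wide range of levels, and the core subunit Cyba was by far the most abundant. On the FPKM scale, which allows for transcript length, untreated WT cells had the order Cyba, Cybb, Ncf1, Ncf4, Rac2, Sod2, Acod1 and Nos2. The 95% counting intervals of neighbours in this order did not overlap. With IL-4 the order changed in both genotypes, since Ncf1 moved below Ncf4 and Rac2. Levels and intervals are on the FPKM scale throughout, and intervals cover counting error only, since no molecular identifiers are described and fragments may then share a source molecule.

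**Figure D1:**
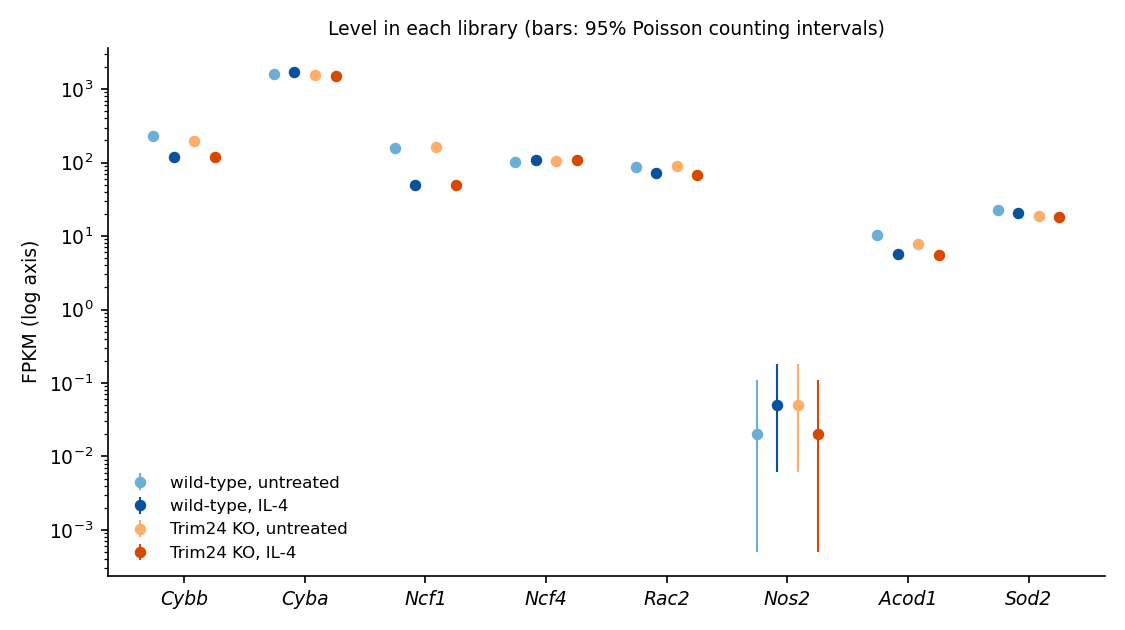
Level of the 8 genes in each of the 4 libraries, on a log FPKM axis, with 95% Poisson counting intervals that are mostly smaller than the points. Ncf1 and Cybb sit lower in both IL-4 libraries, Cyba and Ncf4 stay nearly level, and Nos2 lies between 0.02 and 0.05 FPKM.

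IL-4 was accompanied by lower levels of the catalytic subunit and of the organizer subunit of the oxidase, in both genotypes. A gene was called between libraries at an adjusted p under 0.05 (two-sided Fisher's exact test on rounded reads, adjusted over all genes with a read) together with a change of more than 1.5-fold. In WT cells 3 of the 8 genes (Ncf1, Cybb and Acod1) were called lower and 0 higher, where 7.89% of 15593 genes were called lower and 4.91% higher. In KO cells 2 (Ncf1 and Cybb) were called lower and 0 higher, against 4.04% and 5.29% of 15738 genes. The median log2 ratio of the 7 genes above the detection floor was -0.28 in WT and -0.41 in KO cells, and the medians over all genes of at least 0.5 FPKM were -0.01 and 0.01. In WT cells 1230 of 1996 calls over all genes were lower, and this became 816 of 1624 once a trend of each library over transcript length was removed.

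Ncf1 encodes the cytosolic organizer that brings the other cytosolic subunits to the membrane core. It was listed at 156 FPKM in untreated WT cells (95% counting interval 152 to 161) and 49.8 FPKM with IL-4 (47.3 to 52.5). In KO cells it was at 164 FPKM untreated (160 to 169) and 49.7 FPKM with IL-4 (47.1 to 52.3). Both IL-4 libraries were therefore low and nearly equal, and the untreated and IL-4 intervals were far apart. The log2 ratio was -1.65 in WT (SE 0.04 from counting) and -1.72 in KO cells (SE 0.04), that is 3.13-fold and 3.31-fold lower, and both adjusted p values were below the smallest representable number. Only 24 of 7463 genes averaging 5 FPKM or more had a lower log2 ratio than Ncf1 in WT cells, and 14 of 7464 did in KO cells. Ncf1 lies on the minus strand of chromosome 5, from 134220053 to 134229628 in GRCm38, and 408 of its exon bases are shared with exons of Gtf2ird2 on the opposite strand. Whether the counting used strand is not given in the sources used here. Gtf2ird2 was listed at 2.29 to 2.93 FPKM (90 to 113 reads), and Ncf1 had 1417 to 4571 reads. The part of the shared bases in the Ncf1 count was not tested.

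Cybb encodes the catalytic subunit of the core, the protein that carries the electrons across the membrane. Its level was 232 FPKM in untreated WT cells (228 to 236) and 120 FPKM with IL-4 (117 to 123), and in KO cells 199 FPKM (195 to 203) and 121 FPKM (118 to 124). The 2 IL-4 libraries had overlapping intervals, whereas the untreated KO library was below the untreated WT library. IL-4 gave a log2 ratio of -0.95 in WT cells (SE 0.02) and -0.72 in KO cells (SE 0.02, Fisher's exact test, adjusted p = 3.0e-220), or 1.94-fold and 1.64-fold lower. In GRCm38 Cybb lies on chromosome X from 9435252 to 9487766, on the minus strand.

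Cyba, the partner that stabilizes Cybb in the core, did not follow it. It was listed at 1592 FPKM in untreated WT cells, 1696 FPKM with IL-4, 1568 FPKM in untreated KO cells and 1496 FPKM with IL-4. The log2 ratios with IL-4 were 0.09 in WT (SE 0.02, adjusted p = 1.5e-06, Fisher's exact test) and -0.07 in KO cells (SE 0.02, adjusted p = 0.0018), both under the 1.5-fold threshold and in opposite directions. Removal of the length trend turned the WT value to -0.06. Cyba lies on chromosome 8 from 122424771 to 122432940.

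The cytosolic subunit Ncf4 stayed level. Ncf4, which binds a membrane lipid and helps to sustain the enzyme on phagosomes, was listed at 102, 109, 106 and 109 FPKM in untreated WT, IL-4 WT, untreated KO and IL-4 KO cells. Its log2 ratios with IL-4 were 0.10 (SE 0.05, adjusted p = 0.12, Fisher's exact test) and 0.04 (SE 0.05, adjusted p = 0.67), and the 95% counting interval in KO cells ran from -0.05 to 0.14.

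Rac2, the Rac GTPase typical of blood cells, was listed at 87.5 FPKM in untreated WT cells and 72.1 FPKM with IL-4, against 88.7 and 66.9 FPKM in KO cells. Both IL-4 libraries lay below both untreated libraries, by less than 1.5-fold. Its log2 ratios were -0.28 in WT (SE 0.04) and -0.41 in KO cells (SE 0.04). Rac1, the widely expressed relative that can take its place, was at 195 to 212 FPKM in all libraries. Rac2 (chromosome 15, 78559169 to 78572783) and Ncf4 (78244164 to 78262582) lie near each other on the same chromosome.

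An additive model of genotype and treatment over the 4 libraries (edgeR, quasi-likelihood test) took the other genotype as the repeat of the IL-4 contrast. It assumes the same IL-4 effect in both genotypes. With 1 residual degree of freedom, its error estimate for each gene also drew on all the genes tested. It tested 11791 genes, of which 13.3% were called lower with IL-4 at an adjusted p under 0.05, and of the 8 genes it called 4 lower. These were Ncf1 (log2 effect -1.66, adjusted p = 5.2e-09), Cybb (-0.83, adjusted p = 1.0e-05), Acod1 (-0.67, adjusted p = 0.0017) and Rac2 (-0.33, adjusted p = 0.012). Under DESeq2 the calls of Rac2 (adjusted p = 0.059) and Acod1 (adjusted p = 0.097) were lost. Cyba, Ncf4 and Sod2 did not pass, with effects of 0.02, 0.08 and -0.10, and Nos2 was too low to be tested.

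**Figure D2:**
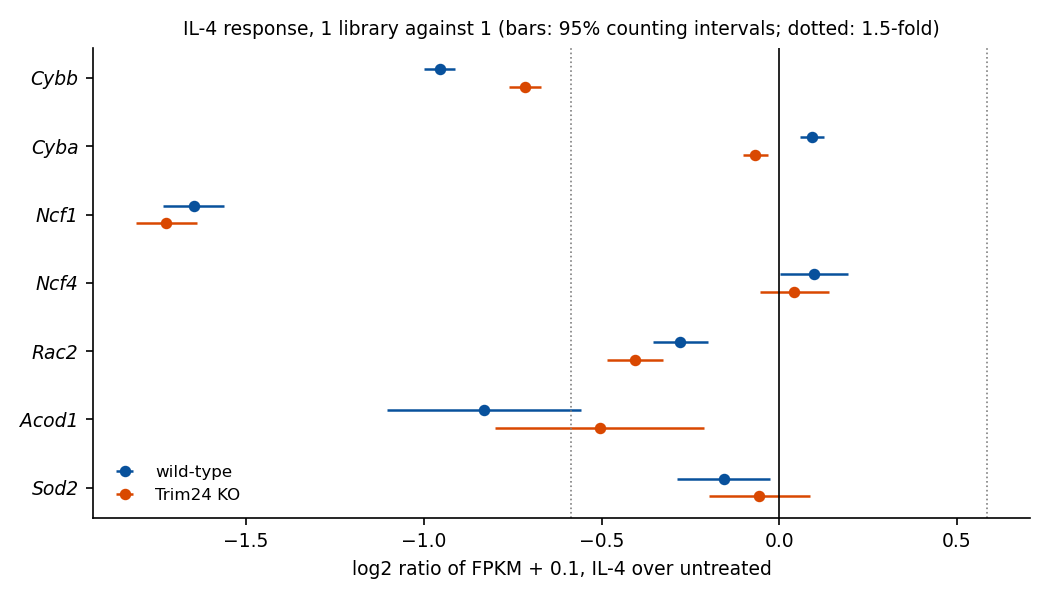
Log2 ratio of IL-4 over untreated for 7 of the 8 genes in WT and Trim24 KO cells, each from 1 library against 1, with 95% counting intervals; dotted lines mark 1.5-fold. Ncf1 is lowest at -1.65 and -1.72, Cybb and Acod1 are lower in both genotypes, and Cyba and Ncf4 lie near 0.

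The unequal changes altered the proportions of the oxidase transcripts. The ratio of Cyba to Cybb FPKM was 6.86 in untreated WT cells (6.70 to 7.03) and 14.2 with IL-4 (13.8 to 14.6). In KO cells it was 7.88 (7.68 to 8.09) and 12.4 (12.0 to 12.7). Transcripts of the catalytic subunit thus became scarcer relative to its partner in both genotypes. The ratio of Ncf1 to Ncf4 was 1.53 and 1.55 in the untreated WT and KO libraries and 0.456 and 0.455 in the IL-4 libraries, so Ncf1 went from the more abundant to the less abundant of the pair. The summed level of the 5 chosen oxidase genes was 2170 and 2126 FPKM untreated and 2047 and 1843 FPKM with IL-4, a sum that is mostly Cyba.

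**Figure D3:**
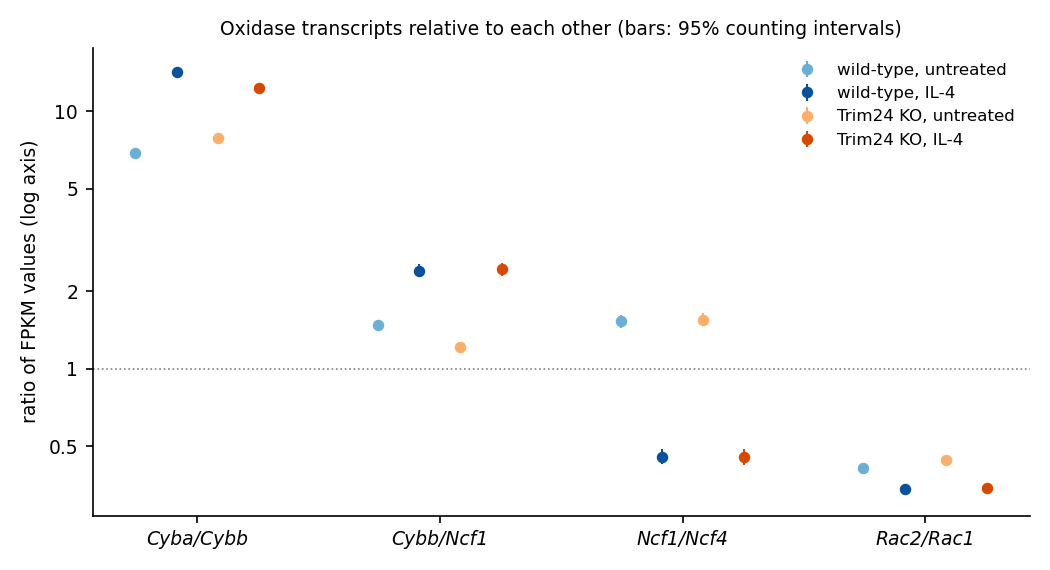
Ratio of FPKM values between pairs of oxidase transcripts in each library, on a log axis with 95% counting intervals; the dotted line marks a ratio of 1. The Ncf1 to Ncf4 ratio is above 1.5 in both untreated libraries and 0.456 or 0.455 with IL-4, and the Cyba to Cybb ratio is higher with IL-4 in both genotypes.

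Promoter sequence is shown for the 2 oxidase genes that were called lower in both genotypes and for Cyba, which was not, because the study concerns the DNA binding of the IL-4-activated factor Stat6. Of the 8 genes, 5 had an entry in the RefSeq promoter table (GRCm38.p6), and 3 (Nos2, Ncf4 and Rac2) had none. The 250 bases before the annotated start are written 5′ to 3′ on the transcript strand, and capitals mark matches to any of 3 motifs. The motifs were the spaced palindrome TTCNNNNGAA preferred by Stat6, the shorter TTCNNNGAA bound by several STAT proteins, and GAGGAA, a core of sites for the myeloid factor PU.1, searched on both strands with overlaps allowed.
Ncf1 promoter (chr5:134229626-134229875, minus strand): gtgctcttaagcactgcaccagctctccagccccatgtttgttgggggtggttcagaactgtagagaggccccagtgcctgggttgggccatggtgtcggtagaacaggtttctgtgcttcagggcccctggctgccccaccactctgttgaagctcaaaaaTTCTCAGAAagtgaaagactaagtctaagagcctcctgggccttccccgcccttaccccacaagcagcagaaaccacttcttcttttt
Cybb promoter (chrX:9469325-9469574, minus strand): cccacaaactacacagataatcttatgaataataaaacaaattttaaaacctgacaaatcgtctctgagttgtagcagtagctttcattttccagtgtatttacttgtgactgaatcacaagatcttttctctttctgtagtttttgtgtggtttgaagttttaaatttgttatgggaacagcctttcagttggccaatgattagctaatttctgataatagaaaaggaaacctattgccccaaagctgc
Cyba promoter (chr8:122432941-122433190, minus strand): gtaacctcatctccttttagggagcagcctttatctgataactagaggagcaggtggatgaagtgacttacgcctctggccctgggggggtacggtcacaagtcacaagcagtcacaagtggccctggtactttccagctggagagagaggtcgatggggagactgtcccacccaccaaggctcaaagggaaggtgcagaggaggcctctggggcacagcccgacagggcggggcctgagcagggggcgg
Ncf1 had 1 match, to TTCNNNGAA, from 88 to 80 bases before its start. The Cybb and Cyba windows held none of the 3 motifs, and the Cybb window lies inside the annotated gene span, which also holds a start farther upstream. In the windows that are not printed, Acod1 had 1 match to GAGGAA, and Sod2 had 1 to GAGGAA and 1 to TTCNNNGAA. Over 32851 windows of the same length, 5.85% held TTCNNNNGAA, 7.02% TTCNNNGAA and 23.3% GAGGAA. A match describes letters in a window and is not evidence of binding, and these windows leave out enhancers.

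Among other genes that work with the oxidase, Rap1a, Hvcn1, Prkcd, Mapk14 and Pak1 were called with IL-4 in neither genotype. Cybc1 and Vav1 moved in opposite directions. Cybc1, a chaperone that the core needs for its assembly, was at 20.9 FPKM in untreated WT and 31.8 with IL-4, against 24.1 and 31.9 FPKM in KO cells. It was called higher in WT (log2 ratio 0.60, SE 0.08) and not in KO cells (0.40, SE 0.07), and the WT value became 0.56 and was not called once the length trend was removed. Vav1, a Rac activator, was called lower in KO cells (log2 ratio -0.71, SE 0.06), and its WT value of -0.57 (SE 0.06) was just under the threshold. Of 9 genes of the other NADPH oxidases and their partners, 3 were listed in any library and none had a mean of 0.5 FPKM.

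Nos2 was at or below the detection floor of 3 reads in every library. It had 1 read in untreated WT cells, 2 with IL-4, 2 in untreated KO cells and 1 with IL-4, listed as 0.02, 0.05, 0.05 and 0.02 FPKM. The upper 95% limits were 0.11 to 0.18 FPKM, and no fold is given. At this depth a difference in Nos2 between the libraries was not detectable. Nos2 lies on chromosome 11 from 78920787 to 78960226.

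Genes that share the substrate of Nos2 were expressed and in part strongly changed. Of 15 genes of arginine and nitric oxide metabolism, 12 averaged 0.5 FPKM or more. With IL-4, 3 of them were called higher and 0 lower in WT cells, and 4 were called higher and 0 lower in KO cells. Arg1, which splits arginine into ornithine and urea, was at 1.84 FPKM in untreated WT cells, 463 with IL-4, 5.40 in untreated KO and 733 with IL-4. It was called higher in KO cells in both states, with log2 ratios of 1.5 (SE 0.30) untreated and 0.66 (SE 0.02) with IL-4. Slc7a2, a carrier that imports arginine, was at 1.52, 34.5, 2.30 and 79.1 FPKM in the same order, and was called higher with IL-4 in both genotypes. Arg2, the mitochondrial arginase, was called higher as well, with log2 ratios of 0.80 (SE 0.28) and 0.78 (SE 0.30), of which the KO value became 0.74 and lost its call with the length trend removed. The remaining call in KO cells, named after its value was seen, was Slc7a1, another arginine carrier (4.12 to 8.41 FPKM), which was also called in WT cells with the length trend removed (log2 ratio 0.96).
Ass1, which regenerates arginine from citrulline, went with genotype rather than with IL-4. It was at 9.38 and 8.15 FPKM in the WT libraries and at 5.20 and 4.86 FPKM in the KO libraries, and was called lower in KO cells in both states (log2 ratios -0.84 and -0.73, SE 0.19 each). Gch1, which makes the first precursor of the cofactor that Nos2 needs, was at 8.03 FPKM in untreated WT and 10.5 with IL-4, against 7.90 and 9.34 FPKM in KO cells. None of its differences was called.

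Acod1 was expressed at a low level that was lower with IL-4. It was listed at 10.3 FPKM in untreated WT cells (95% counting interval 9.15 to 11.5) and 5.74 with IL-4 (4.90 to 6.68), and at 7.82 (6.83 to 8.91) and 5.48 FPKM (4.66 to 6.41) in KO cells. The untreated WT library was the highest, and the untreated KO library lay between it and the overlapping IL-4 libraries. The log2 ratio with IL-4 was -0.83 in WT (SE 0.14, Fisher's exact test, adjusted p = 8.3e-09), which was called. In KO cells it was -0.51 (SE 0.15, adjusted p = 0.0040), or 1.42-fold lower and under the fold threshold. The difference between the genotypes' responses was 0.33 on the log2 scale, with a 95% counting interval of -0.07 to 0.73, so a difference was not shown. Acod1 lies on chromosome 14 from 103047012 to 103056573.

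Enzymes around itaconate in the tricarboxylic acid cycle were also examined. Of 15 genes, 1 was called higher and 0 lower in WT cells, where 4.91% of all genes were called higher and 7.89% lower. In KO cells 2 were called higher and 0 lower, against 5.29% and 4.04% of all genes. The median log2 ratios of the list were 0.14 in WT and 0.11 in KO cells. Idh3a, a subunit of the NAD-dependent isocitrate dehydrogenase, was called in both, from 11.7 to 19.1 FPKM in WT (log2 ratio 0.70, SE 0.10) and from 10.8 to 17.9 FPKM in KO cells (0.72, SE 0.11). Clybl, which takes part in breaking down an itaconate-derived metabolite, was the other call in KO cells, at 4.09 FPKM untreated and 7.52 with IL-4. In WT cells Clybl was at 4.96 and 7.22 FPKM and was not called.

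Sod2, which turns superoxide into hydrogen peroxide in mitochondria, was listed at 22.7 FPKM in untreated WT cells and 20.4 with IL-4, against 19.0 and 18.3 FPKM in KO cells. All 4 values lay close together, the KO pair below the WT pair. Neither IL-4 ratio was called, at -0.16 in WT (SE 0.07, Fisher's exact test, adjusted p = 0.063) and -0.06 in KO cells (SE 0.07, adjusted p = 0.73). Sod2 lies on chromosome 17 from 13007839 to 13018119.
Of 16 other genes that remove superoxide and peroxide, 1 was called higher and 1 lower in WT cells, and 1 higher and 3 lower in KO cells, with medians of -0.10 and -0.19. Gsr, which renews reduced glutathione with NADPH, was at 32.2 and 17.3 FPKM in WT and at 33.0 and 16.2 FPKM in KO cells, and was called lower in both (log2 ratios -0.90 and -1.02, SE 0.08 each). Sod3, the extracellular superoxide dismutase, was called higher in both but from 0.13 to 0.78 and from 0.27 to 1.24 FPKM, a low level throughout. Sod1, the cytosolic form, was at 166 and 144 FPKM in WT and 142 and 113 FPKM in KO cells and was not called. In KO cells Prdx1 (459 to 290 FPKM) and Txn1 (478 to 317 FPKM), a peroxidase and its electron donor, made up the remaining calls. In WT cells these were at 569 and 412 FPKM and at 393 and 323 FPKM and were not called.

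Of 12 receptors, adaptors and transcription factors known to induce these genes, 1 was called higher and 1 lower in WT cells, and 2 higher and 1 lower in KO cells. Tlr2, a receptor for bacterial lipoproteins, was at 19.1 FPKM in untreated WT and 4.70 with IL-4, against 16.7 and 5.12 FPKM in KO cells (log2 ratios -2.0 and -1.69, SE 0.13 each). Irf1, an interferon-regulated factor that acts on Nos2, was at 22.1 and 55.8 FPKM in WT and at 26.6 and 49.0 FPKM in KO cells (log2 ratios 1.33 and 0.88, SE 0.07 each). Tlr2 was therefore lower and Irf1 higher while Nos2 stayed at 1 or 2 reads. Nfkb1 was the other gene called higher in KO cells, at 22.3 FPKM untreated and 35.9 with IL-4. Spi1, which encodes PU.1, was at 198 to 230 FPKM and was not called. The lists were drawn up with earlier results of these data known.

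**Figure D4:**
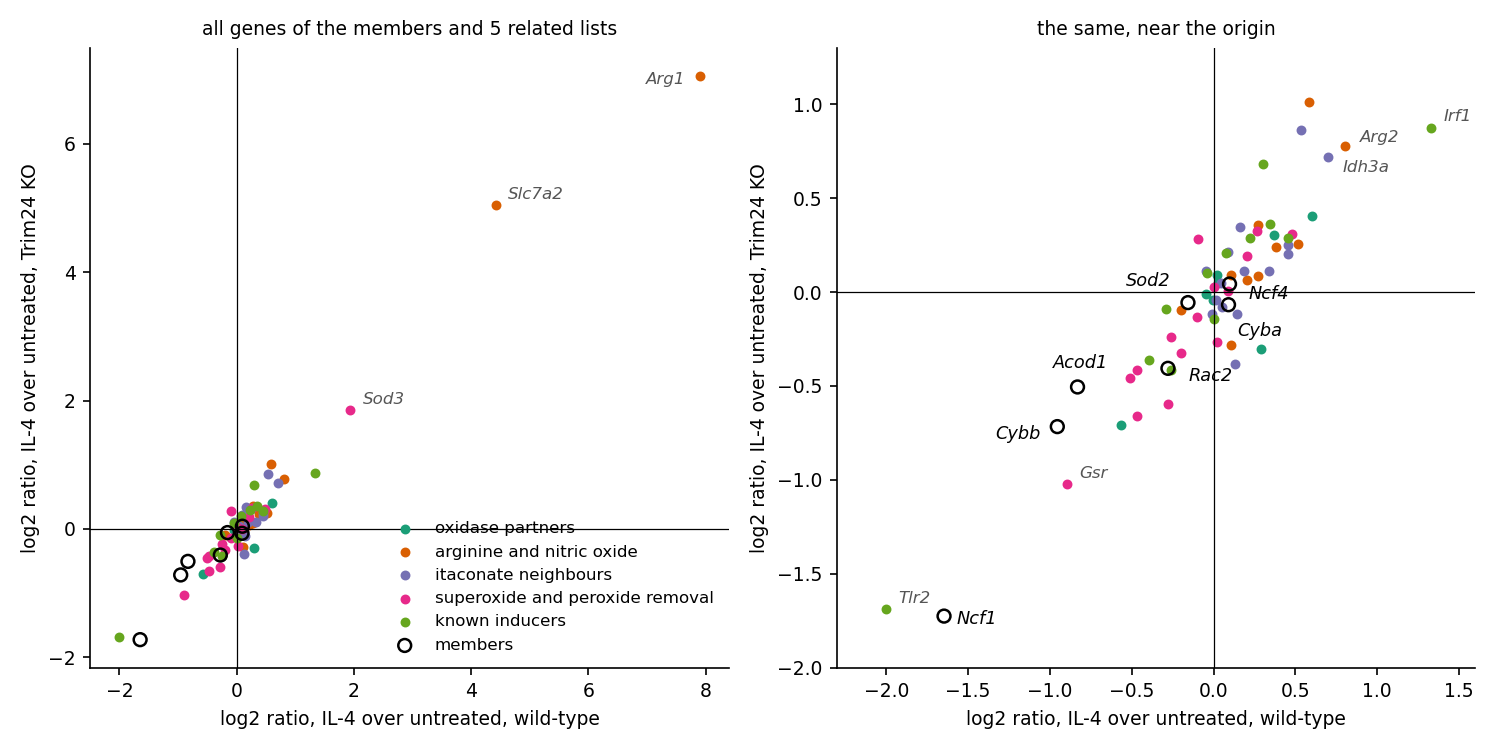
Log2 ratio of IL-4 over untreated in WT (horizontal) and Trim24 KO cells (vertical) for the members (open circles) and the genes of 5 related lists averaging 0.5 FPKM or more (coloured points), at full scale on the left and near the origin on the right. Arg1 and Slc7a2 lie far to the upper right, and Tlr2 and Ncf1 to the lower left.

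The 7 genes above the detection floor differed by less than 1.5-fold between KO and WT cells, and for Nos2 no difference could be detected at this depth. In untreated cells 0 of the 8 were called between KO and WT, where 1.58% of 15623 genes were called in either direction. With IL-4 0 were called as well, where 3.81% of 15573 genes were. In the latter pair 474 of 593 calls over all genes were higher in KO cells, which became 217 of 315 with the length trend removed. The medians over the 7 genes with a ratio were -0.02 untreated and -0.07 with IL-4, and those over all genes of at least 0.5 FPKM were -0.01 and 0.02. In the additive model the treatments served as the repeat of the genotype contrast, and whether they came from separate mice was not given. This model called 1.66% of 11791 genes for genotype and 0 of the 7 members tested, also 0 under DESeq2. Of these members Sod2 alone had an unadjusted p under 0.05 (edgeR quasi-likelihood test).

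Some genotype differences had an adjusted p under 0.05 by Fisher's exact test without reaching 1.5-fold. The share of all genes that did so is not given here, so their number is not read as a result. Cybb was lower in the untreated KO library, with a log2 ratio of -0.22 (SE 0.02, Fisher's exact test, adjusted p = 9.5e-29). With IL-4 its ratio was 0.02 (SE 0.03), which turned to -0.15 when the length trend was removed. Acod1 was at -0.39 (SE 0.13, adjusted p = 0.035, Fisher's exact test) untreated, an adjusted p that became 0.052 with the length trend removed, and at -0.07 (SE 0.16) with IL-4. Sod2 was at -0.26 (SE 0.07, adjusted p = 0.0047, Fisher's exact test) untreated and -0.16 (SE 0.07, adjusted p = 0.11) with IL-4. In the additive model its effect was -0.21 (adjusted p = 0.34), and with the length trend removed it was -0.24 and passed (adjusted p = 0.041). With IL-4, Cyba was lower in the KO library at -0.18 (SE 0.02, adjusted p = 1.7e-22, Fisher's exact test), and this was -0.01 after removal of the length trend. Rac2 was lower there as well, at -0.11 (SE 0.04, adjusted p = 0.047, Fisher's exact test). Without the trend Rac2 was at -0.12 (adjusted p = 0.039, exact binomial test). By that test the IL-4 values of Cybb (-0.15, adjusted p = 2.7e-07) and Sod2 (-0.23, adjusted p = 0.012) were also under 0.05. Ncf1 differed little between genotypes, at 0.07 (SE 0.03) untreated and -0.0049 (SE 0.05) with IL-4, with counting intervals of 0.01 to 0.13 and -0.11 to 0.10.

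**Figure D5:**
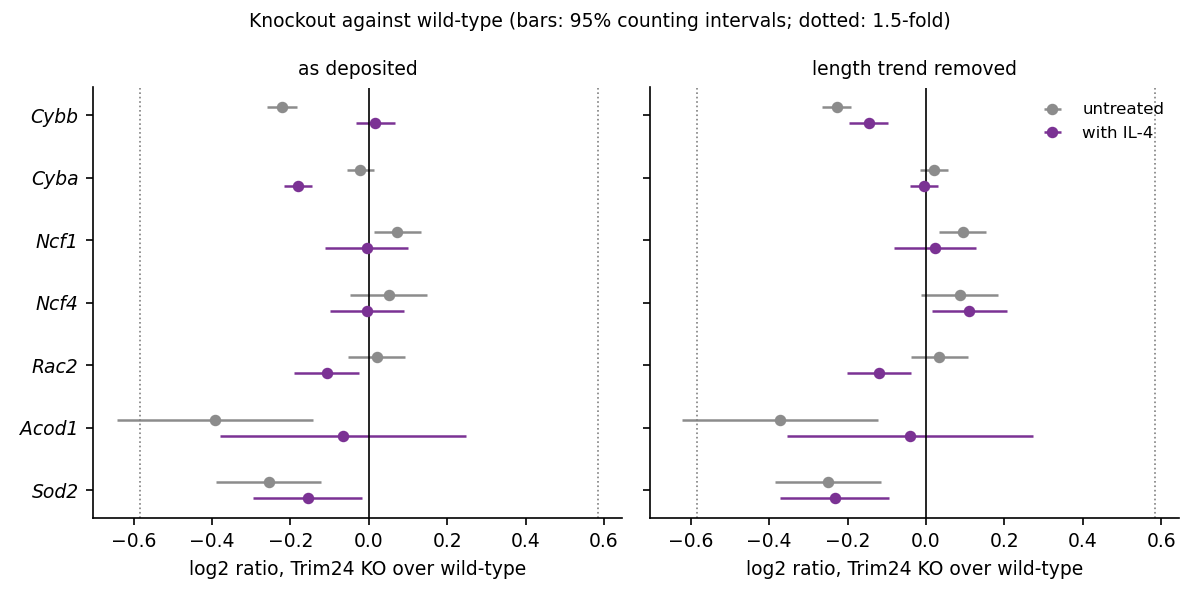
Log2 ratio of Trim24 KO over WT for 7 of the 8 genes, untreated and with IL-4, as deposited (left) and with the trend over transcript length removed (right), with 95% counting intervals; dotted lines mark 1.5-fold. No value passes 1.5-fold, and the IL-4 values of Cybb and Cyba move to -0.15 and -0.01 on the right.

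Whether the IL-4 response differed between genotypes was tested directly as the difference of the log2 ratios. With an adjusted p under 0.05 and a difference above 1.5-fold, 1.89% of 16371 genes passed and 0 of the 8. Cybb had the smaller reduction in KO cells, by 0.24 on the log2 scale (95% counting interval 0.18 to 0.30), and Cyba the difference of -0.16 (-0.21 to -0.11). With the length trend removed these became 0.08 (adjusted p = 0.19) and -0.02 (adjusted p = 0.85, counting z-test over all genes). For Ncf1 the difference was -0.05 (-0.17 to 0.08), for Ncf4 -0.06 (-0.19 to 0.08), for Rac2 -0.13 (-0.24 to -0.02) and for Sod2 0.10 (-0.09 to 0.29). Pairs with and without IL-4 share libraries with the genotype pairs, so these values are not independent of those above.

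The 3 chosen genes with the widest range over the libraries were Ncf1, Acod1 and Cybb, and for each the 3 nearest profiles among 7463 genes were found by the root mean square distance of centred log2 levels over the 4 libraries. Nearest to Ncf1 was Marchf9 (distance 0.06), followed by Tnfaip2 and Sh2d3c. Tnfaip2 was at 147, 50.5, 149 and 51.3 FPKM in untreated WT, IL-4 WT, untreated KO and IL-4 KO cells, close to the levels of Ncf1 itself. Znrf1 was nearest to Cybb (distance 0.03), followed by Stap1 and Map3k20. Specc1 was nearest to Acod1 (distance 0.06), with Iqgap2 and Rsph9 next. With 4 libraries a near profile is a description only.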

How the data were processed

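Total RNA libraries, 4 in all and 1 per group by genotype and treatment label, were sequenced on an Illumina HiSeq. Bowtie alignment to GRCm38 (mm10) and RSEM quantification were done by the authors (tools and build per the labels, versions not given in the sources used here). The authors deposited 1 table per library with an expected count and an FPKM value per gene. The deposited expected count is the number of reads RSEM assigned to a gene. For 22.2% to 22.8% of the genes listed in a library it was not whole, because shared reads are divided by a model. Genes with close copies are therefore uncertain. The deposited FPKM divides it by effective transcript length and library total. Unlisted genes were set to 0. Of 16403 gene IDs, 16365 matched a symbol in a RefSeq GRCm38.p6 table, 38 did not, and 13431 were listed in every library, with totals of 11026033 to 11250099 reads.

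Log2 ratios were taken of FPKM + 0.1, so changes of low genes are understated. Expected counts were rounded and compared by two-sided Fisher's exact tests with Benjamini-Hochberg adjustment over all genes with a read in the pair, and called at an adjusted p under 0.05 and over 1.5-fold. Standard errors use counting error only (0.5 reads added), and intervals are at 95%. Genotype and treatment were fitted as additive terms with edgeR 4.0.16 (TMM, filterByExpr, quasi-likelihood test, 1 residual degree of freedom). Each library's log2 deviation was smoothed over log2 transcript length (lowess, fraction 0.3, 10443 genes) and removed as an alternative. The other alternatives were pseudocounts of 0.01 and 1, CPM, TMM, upper-quartile scaling, a 2-fold threshold, a filter of 1 FPKM, assumed biological coefficients of variation (BCV) of 0.1, 0.2 and 0.4, DESeq2 1.42.0, limma 3.58.1, every gene with a read, and 2 reads added. Promoters are RefSeq sequences. Named were the 8 genes, Trim24, genes of the lists called in the same direction in both IL-4 or both genotype pairs, the fixed partners Cybc1, Rac1, Arg1, Slc7a2, Ass1, Gch1 and Sod1, and nearest profiles, of which 1 item is not reported here. Vav1, Rap1a, Hvcn1, Prkcd, Mapk14, Pak1, Slc7a1, Clybl, Prdx1, Txn1, Nfkb1, Spi1 and Gtf2ird2 were added after their values were seen. The cell type markers named individually, Lyz2 among them, were also picked after their values were seen. The 8 genes and the lists were chosen with earlier results of these data known.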

Additional observations from a re-analysis of the deposited data

How the results depend on the processing

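With 1 library per group there was no estimate of the variation between cultures, so a BCV was assumed instead. In WT cells, of 3 genes called lower with IL-4, 1 passed at a 2-fold threshold, 1 with a BCV of 0.2 (Ncf1 in both cases) and 0 with 0.4. In KO cells, of 2 genes, 1 (Ncf1), 1 (Ncf1) and 0 passed. In the additive model DESeq2 called 2 of the 4 (Cybb and Ncf1), every gene with a read in the fit cost the call of Rac2, and removal of the length trend added 1 gene for genotype (Sod2). Every setting kept 0 of the 8 called between genotypes in single pairs, and 0 for the difference of responses.

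Some values near 0 that were never called changed sign. With the length trend removed, the IL-4 ratios in WT became -0.0627 for Cyba and -0.0166 for Ncf4. The ratios of KO over WT became 0.0209 for Cyba untreated and, with IL-4, -0.15 for Cybb, 0.0231 for Ncf1 and 0.11 for Ncf4. The additive effects of Cyba became -0.065 for IL-4 and 0.0078 for genotype, and the difference of responses of Ncf4 became 0.023. With IL-4, the ratio of KO over WT for Cybb was -0.0044 under TMM and -0.0286 under upper-quartile scaling. For Ncf1 the same ratio was 0.0058 on CPM. Upper-quartile scaling gave genotype effects of -0.0018 for Ncf1 and -0.011 for Ncf4. The cause was not tested.

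Counts over all genes moved more. For IL-4 in WT, 1996 calls became 861 at 2-fold and 1321, 258 and 45 with a BCV of 0.1, 0.2 and 0.4. In KO, 1468 became 710, 970, 272 and 33. Between untreated genotypes 247 became 127, 68, 15 and 7, and 155 with a pseudocount of 1. With IL-4, 593 became 171, 120, 21 and 11, 321 with that pseudocount, and 315 without the length trend. In the additive model the 2987 IL-4 calls became 1262 with DESeq2 and 1675 with every gene, and the 196 genotype calls became 68 with DESeq2, 92 with limma, 24 with every gene, 494 with upper-quartile scaling and 624 without the length trend.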
